A study of Homo sapiens with 15 samples.

Results

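The genes described here encode melanophilin, the RAB27 GTPases, the class V myosins and the synaptotagmin-like RAB27 effectors. They were chosen by name as the machinery that couples RAB27-bearing organelles to actin motors, and their GENCODE v29 symbols were matched to the Ensembl identifiers of the tables. The 10 genes, of 58735 in the tables, are MLPH, MYRIP, RAB27A, RAB27B, MYO5A, MYO5B, MYO5C, SYTL1, SYTL2 and SYTL4. RNA of 9 of them was found in at least 1 library. RAB27A, MYO5A, MYO5B, MYO5C, SYTL1 and SYTL4 passed the filter on low values, at least 0.5 FPKM in at least 3 libraries, and are 6 of the 16175 genes tested. MLPH is itself the target of 1 of the 4 knockout clones compared.

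RAB27A and RAB27B are small GTPases that sit on melanosomes, lytic granules and other secretory organelles. In pigment cells, melanophilin binds RAB27A on the melanosome and recruits the actin motor myosin Va, and loss of any of these proteins leaves melanosomes clustered around the nucleus. MYRIP links RAB27A to myosins in other secretory cells, and the synaptotagmin-like proteins tether RAB27 organelles to the plasma membrane. RAB27 proteins are also known for their part in exosome release.

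RNA was sequenced from HEK293T cells, a human embryonic kidney line that carries viral oncogenes, in 5 groups of 3 culture wells, 15 libraries in all. The cells of the control group, Non-target, received lentiCRISPRv2, a lentivirus that delivers Cas9 and a guide RNA, with a guide that has no target, and the labels give their genotype as WT. In the other groups the same vector carried a guide against the gene in the group's name, and the labels give the genotypes C9orf89-KO, RHBDD2-KO, MAGI2-KO and MLPH-KO. These groups are called C9orf89-CKO, RHBDD2-CKO, MAGI2-CKO and MLPH-CKO here. Each group, Non-target too, grew from 1 clone obtained by limiting dilution after puromycin selection, so that effects of the clone and of the guide cannot be told apart. The study asked which genes of supporting cells alter the survival of neighbouring tumor cells under drugs. All comparisons with Non-target share its 3 wells and are not independent.

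Expression is given in FPKM, the fragments on a gene scaled for its exon length and for the depth of the library, and a library held between 15517856 and 19489918 fragments on genes. The libraries numbered 1 stood apart in every group. The chi-square per gene was between 14.6 and 24.8 in pairs with a replicate 1 and between 2.4 and 6.54 between replicates 2 and 3. Calls described below that changed without these 5 libraries are given with their value.

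Markers of HEK293T cells were found in all groups. The 6 genes PAX2, NEFL, NEFM, VIM, NES and LHX1 summed to 95.3 FPKM in Non-target, 120.0 in C9orf89-CKO, 52.8 in RHBDD2-CKO, 101.0 in MAGI2-CKO and 147.0 in MLPH-CKO, with VIM the most abundant. Among them, the neurofilament gene NEFM was near 0 in MAGI2-CKO (0.0274 ± 0.0378 FPKM, SD, n = 3) against 27.2 ± 9.71 in Non-target. In RHBDD2-CKO NEFM stood at 1.34 ± 0.482 FPKM, and NEFL at 0.984 ± 0.131 against 18.8 ± 1.91 in Non-target. The sum of the blood cell markers PTPRC, SPI1, CD33, MPO, CD74 and LYZ, read because U937 and other blood cells express them, was at most 0.504 FPKM in any library, with MPO at 0 in all. SPI1 was the most abundant except in RHBDD2-CKO, where LYZ averaged 0.0995 FPKM and SPI1 0.0464.

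The guide listed for MLPH among those recovered in the study's screen is shown because it says where in the gene a cut would fall. The study's oligonucleotide list holds the same guide for MLPH, and its methods describe cloning the listed oligonucleotides of each candidate into the vector. Which bases were changed in the MLPH-CKO clone was not analysed here. MLPH (ENSG00000115648) lies on the forward strand at chr2:237485428-237555318 (GRCh38). The last 13 bases of the guide, in capitals, match the opposite strand at chr2:237540521-237540533, which is the end of coding exon 10 of 16 (chr2:237540348-237540533). The second line is the forward strand of that exon end, with the same 13 bases in capitals.
MLPH guide: gtcttacCTCCGGGTCCGCC
end of exon 10: gttgggcctctcccccaGGCGGACCCGGAG
The 3 bases next to the guide's end are TGG, the kind of motif that Cas9 requires. The first 7 bases of the guide lie beyond the exon end and were not matched, since the sequence between exons was not used here. This exon end is held by 12 of 23 MLPH transcripts in GENCODE v29, and 0 of 206694 transcripts of the annotation hold the whole guide.

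The promoters of 5 genes are shown because MLPH had no RNA, RAB27B was nearly absent from 3 clones, and RAB27A, MYO5A and MYO5C were raised together in 2 clones. Each line gives the 250 bases before the first start that RefSeq lists for the gene (GRCh38.p14), in the direction of the gene. Capitals mark GGGCGG on either strand, the core of the GC box. The windows are chr2:237487001-237487250, plus strand, for MLPH, chr18:54717607-54717856, plus strand, for RAB27B, and chr15:55319124-55319373, chr15:52529051-52529300 and chr15:52295805-52296054, all minus strand, for RAB27A, MYO5A and MYO5C. The MLPH window lies inside the gene as GENCODE v29 draws it, downstream of its first start at 237485428. RefSeq gives 2 windows for MLPH, 2 for RAB27B and 5 for RAB27A, and those after the first are not shown or counted. MYO5A and MYO5C have 1 each.
MLPH: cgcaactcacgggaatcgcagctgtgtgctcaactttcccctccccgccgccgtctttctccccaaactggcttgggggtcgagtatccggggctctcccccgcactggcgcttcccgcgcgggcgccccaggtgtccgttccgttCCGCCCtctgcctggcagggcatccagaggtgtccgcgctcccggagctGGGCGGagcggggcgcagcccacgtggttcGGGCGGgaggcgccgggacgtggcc
RAB27B: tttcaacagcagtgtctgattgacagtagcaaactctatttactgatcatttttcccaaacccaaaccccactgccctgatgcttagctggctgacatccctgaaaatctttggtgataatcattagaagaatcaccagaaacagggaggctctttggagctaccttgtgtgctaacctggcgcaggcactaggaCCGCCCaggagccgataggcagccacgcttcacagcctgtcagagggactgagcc
RAB27A: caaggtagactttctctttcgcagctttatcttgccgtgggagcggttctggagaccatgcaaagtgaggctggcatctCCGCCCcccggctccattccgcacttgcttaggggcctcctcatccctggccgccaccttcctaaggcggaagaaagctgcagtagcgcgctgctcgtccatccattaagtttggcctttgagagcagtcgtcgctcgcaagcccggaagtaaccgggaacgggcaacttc
MYO5A: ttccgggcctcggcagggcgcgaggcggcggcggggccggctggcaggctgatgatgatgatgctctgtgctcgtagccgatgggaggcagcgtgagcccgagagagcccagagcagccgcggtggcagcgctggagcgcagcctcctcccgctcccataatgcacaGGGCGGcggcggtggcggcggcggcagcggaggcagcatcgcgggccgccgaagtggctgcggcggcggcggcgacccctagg
MYO5C: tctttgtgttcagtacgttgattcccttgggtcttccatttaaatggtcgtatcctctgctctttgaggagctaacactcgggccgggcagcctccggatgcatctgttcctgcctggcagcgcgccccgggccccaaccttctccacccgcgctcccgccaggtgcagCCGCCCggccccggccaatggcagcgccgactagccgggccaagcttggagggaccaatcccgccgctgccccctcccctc
GGGCGG was found 3 times in the MLPH window and once in each of the other 4, and 42.6% of 35116 RefSeq windows of this length hold it. The E-box CACGTG, searched on both strands, was present once in the MLPH window, not marked above, and in none of the other 4, against 6.34% of all windows. CATGTG, the other form searched, was in none of the 5 windows and in 9.42% of all. The MLPH window held 29 CpG dinucleotides and that of MYO5A 33, against 17 for RAB27A, 19 for MYO5C, 4 for RAB27B and a median of 11 over all windows. A match of letters is a description of the sequence and not a binding site.

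MLPH, the adaptor, gave no fragment in any of the 15 libraries, Non-target included. With 0 of 262601551 fragments in all, a floor of 3 fragments allows up to 0.0205 to 0.0258 FPKM in a library, depending on its depth. The level of MLPH RNA thus could not serve as a check on the MLPH-CKO label. The study had counted MLPH among the candidates highly expressed in HEK293T cells, by the values of a public database. Among the other targets, RHBDD2 stood at 12.4 ± 1.18 FPKM in RHBDD2-CKO and 33.5 ± 5.5 in Non-target, but also at 13.8 ± 2.15 in MAGI2-CKO (SD, n = 3). The gene C9orf89, named CARD19 in the annotation, stood at 4.32 ± 0.0421 FPKM in C9orf89-CKO and 6.56 ± 1.04 in Non-target. In the other clones it stood at 4.79 ± 0.339 in RHBDD2-CKO, 5.82 in MAGI2-CKO and 6.68 in MLPH-CKO. MAGI2 was at 0.068 ± 0.0195 FPKM in MAGI2-CKO and at 0.115 ± 0.0108 in Non-target. It was also low in the other clones, at 0.0718 in C9orf89-CKO, 0.0829 in RHBDD2-CKO and 0.0838 in MLPH-CKO. A frameshift need not lower a gene's RNA, so that these levels check the labels only in part. The study itself checked the knockouts on protein, with flow cytometry for MLPH and MAGI2 and western blots for C9orf89 and RHBDD2.

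MYRIP (chr3:39808914-40260321, plus strand), the second adaptor, was barely detected, with 70 fragments over the 15 libraries and between 1 and 11 in each. The 3 libraries of a group held 15 fragments in Non-target, 15 in C9orf89-CKO, 10 in RHBDD2-CKO, 19 in MAGI2-CKO and 11 in MLPH-CKO. A difference was not detectable at this depth. Both adaptor genes were therefore at or near 0 in these cells, while RAB27A and MYO5A were not. EIF1B-AS1, on the other strand of MYRIP, averaged 0.221 FPKM, and whether the counting used the strand is not given in the sources used here.

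RAB27A (ENSG00000069974, chr15:55202966-55319113, minus strand) was raised in MAGI2-CKO and MLPH-CKO. It stood at 1.27, 1.28 and 1.44 FPKM in the Non-target libraries, 1.23, 1.33 and 1.5 in C9orf89-CKO, 1.37, 1.22 and 1.39 in RHBDD2-CKO, 2.21, 1.97 and 1.78 in MAGI2-CKO, and 2.29, 2.11 and 2.18 in MLPH-CKO. Every MAGI2-CKO and MLPH-CKO library lay above every library of the other groups, which overlapped among themselves. On the log2(FPKM + 0.1) scale RAB27A was 0.54 ± 0.11 (SE) higher in MAGI2-CKO than in Non-target, with an adjusted p of 0.00142 by limma, and 0.68 ± 0.11 higher in MLPH-CKO, with an adjusted p of 0.000367. The differences in C9orf89-CKO (0.02 ± 0.11) and RHBDD2-CKO (-0.00 ± 0.11) did not pass the test, at adjusted p of 0.911 and 0.99. MAGI2-CKO and MLPH-CKO did not differ beyond their spread (0.14 ± 0.11, adjusted p = 0.4). In bulk RNA, fewer cells with a transcript and less of it per cell cannot be told apart.

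RAB27A shares its locus with PIGBOS1 on the same strand, with a mean of 7.72 FPKM over all libraries, and with PIGB on the other strand, at 1.52 FPKM. PIGBOS1 was higher in MAGI2-CKO by 0.98 (adjusted p = 0.0123) and in MLPH-CKO by 0.90 (adjusted p = 0.0233). PIGB was higher in MLPH-CKO by 0.46 (adjusted p = 0.0181) and stood at -0.02 in MAGI2-CKO (adjusted p = 0.934). It fell by 0.71 in RHBDD2-CKO (adjusted p = 0.00112), where RAB27A stood at -0.00. The part of shared reads in the RAB27A result was not tested.

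RAB27B (chr18:54717860-54895516, plus strand), the second RAB27 isoform, was low in Non-target and nearly absent from 3 clones. Its fragments numbered 16, 11 and 30 in the Non-target libraries, 12, 11 and 18 in C9orf89-CKO, 0, 1 and 0 in RHBDD2-CKO, 2, 0 and 3 in MAGI2-CKO, and 1, 3 and 0 in MLPH-CKO. No library of these last 3 clones reached the lowest of Non-target or C9orf89-CKO, and those 2 groups overlapped. Scaled for depth, Non-target held 59.7 times the RAB27B fragments of RHBDD2-CKO (95% exact interval 10.3 to 2400.0), 13.5 times those of MAGI2-CKO (5.48 to 43.3) and 16.1 times those of MLPH-CKO (5.95 to 61.1), intervals that cover counting error only. Against C9orf89-CKO the ratio was 1.45 (0.954 to 2.22).

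RAB27B lay under the filter, and its test comes from the fit without a filter on low values (32715 genes). It was lower than in Non-target by -1.27 in RHBDD2-CKO (limma, adjusted p = 0.000628), by -1.15 in MAGI2-CKO (adjusted p = 0.00104) and -1.18 in MLPH-CKO (adjusted p = 0.0012), each ± 0.19. Lower genes made up 8.08%, 9.38% and 7.6% of that fit in the same clones. These calls held in all alternatives run, though the fitted size depends on the pseudocount at so low a level. C9orf89-CKO stood at -0.26 ± 0.19 (adjusted p = 0.493). The 3 clones were also lower than C9orf89-CKO, where 7.11%, 5.66% and 3.3% of all genes were lower in RHBDD2-CKO, MAGI2-CKO and MLPH-CKO, but these calls were lost without the libraries numbered 1 (adjusted p = 0.0679, 0.0951 and 0.128). In MAGI2-CKO and MLPH-CKO, RAB27A was higher and RAB27B lower than in Non-target.

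**Figure D1:**
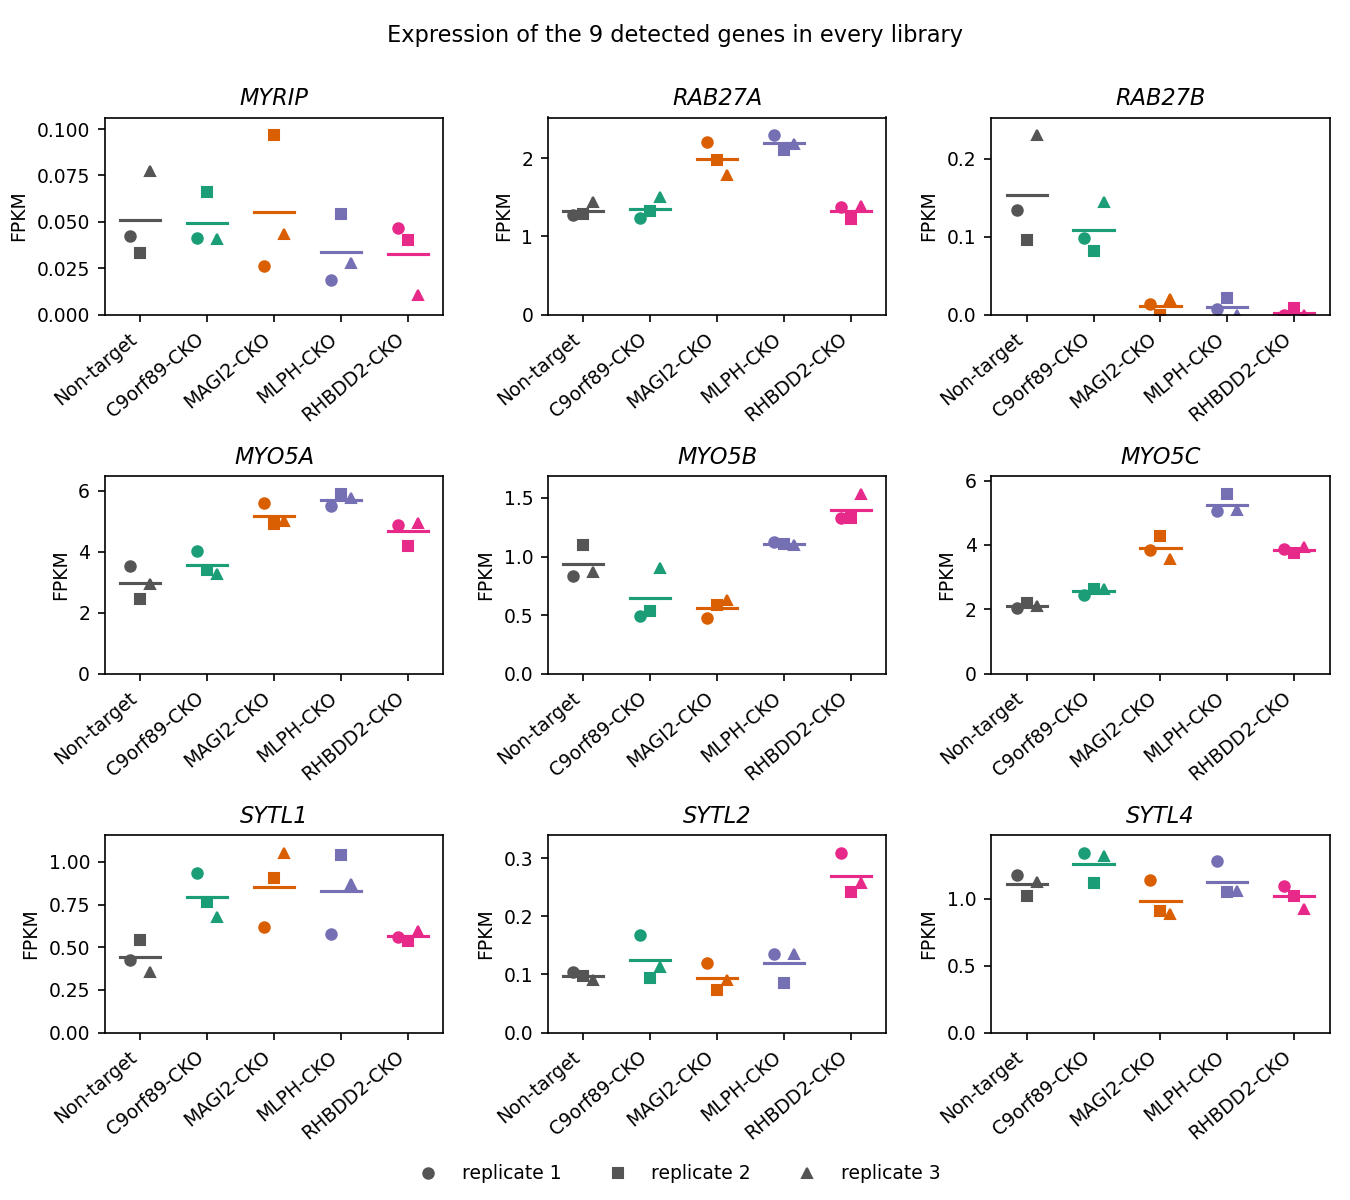
FPKM of the 9 detected genes (vertical axes, each from 0) in the 15 libraries, by group; symbols are the 3 libraries of a group and lines their mean. RAB27A reaches 1.78 to 2.29 in MAGI2-CKO and MLPH-CKO and at most 1.5 elsewhere, while RAB27B is close to 0 in the 3 right-hand groups.

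MYO5C (ENSG00000128833, chr15:52192322-52295798, minus strand), a motor of secretory granules in epithelia, was raised in all 4 clones. It stood at 2.05, 2.18 and 2.1 FPKM in Non-target, 2.44, 2.64 and 2.62 in C9orf89-CKO, 3.86, 3.74 and 3.95 in RHBDD2-CKO, 3.84, 4.27 and 3.56 in MAGI2-CKO, and 5.07, 5.57 and 5.08 in MLPH-CKO. All 12 clone libraries lay above Non-target, and the MLPH-CKO libraries lay above all others. Against Non-target MYO5C was higher by 0.27 in C9orf89-CKO (limma, adjusted p = 0.0173), 0.84 in RHBDD2-CKO (adjusted p = 4.01e-06), by 0.85 in MAGI2-CKO (adjusted p = 2.79e-06) and by 1.27 in MLPH-CKO (adjusted p = 1.11e-07), each ± 0.07. MLPH-CKO also exceeded MAGI2-CKO by 0.42 (adjusted p = 0.00139), and RHBDD2-CKO differed from MLPH-CKO by -0.43 (adjusted p = 0.000577). MAGI2-CKO and RHBDD2-CKO did not differ beyond their spread (-0.01 ± 0.07, adjusted p = 0.927). The C9orf89-CKO call was lost without the libraries numbered 1 (adjusted p = 0.0632), without C9orf89-CKO replicate 2 (adjusted p = 0.0604) or 3 (adjusted p = 0.055), and in a fit of the 6 libraries alone (adjusted p = 0.0698).

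MYO5A (ENSG00000197535, chr15:52307283-52529050, minus strand), the melanosome motor, was raised in 3 clones. Its values were 3.52, 2.46 and 2.95 FPKM in Non-target, 4.02, 3.41 and 3.28 in C9orf89-CKO, 4.89, 4.19 and 4.94 in RHBDD2-CKO, 5.6, 4.9 and 5.02 in MAGI2-CKO, and 5.49, 5.88 and 5.77 in MLPH-CKO. C9orf89-CKO overlapped Non-target, and the other clones lay above both. MYO5A was higher than in Non-target by 0.65 in RHBDD2-CKO (limma, adjusted p = 0.00126), by 0.79 in MAGI2-CKO (adjusted p = 0.000224) and 0.93 in MLPH-CKO (adjusted p = 9.08e-05), each ± 0.12. C9orf89-CKO stood at 0.26 ± 0.12 (adjusted p = 0.127) and passed only without Non-target replicate 1 (adjusted p = 0.0262). The 3 clones with raised MYO5A did not pass the test against each other. The widest gap, -0.29 ± 0.12 for RHBDD2-CKO against MLPH-CKO (adjusted p = 0.0799), passed without Non-target replicate 1 (adjusted p = 0.0424) or 2 (adjusted p = 0.0422), with the 6 libraries alone (adjusted p = 0.0495) and without the libraries numbered 1 (-0.35, adjusted p = 0.0344). That gap also passed with the replicate number as a block (adjusted p = 0.0316).

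MYO5B (ENSG00000167306, chr18:49822813-50195093, minus strand), which moves recycling endosomes, was lower than in Non-target in MAGI2-CKO and higher in RHBDD2-CKO. It stood at 0.832, 1.1 and 0.869 FPKM in Non-target, 0.491, 0.535 and 0.904 in C9orf89-CKO, 1.33, 1.33 and 1.53 in RHBDD2-CKO, 0.472, 0.585 and 0.625 in MAGI2-CKO, and 1.12, 1.11 and 1.1 in MLPH-CKO. MAGI2-CKO lay below Non-target and RHBDD2-CKO above it without overlap, and C9orf89-CKO reached into the range of Non-target through its replicate 3. MYO5B fell by 0.64 ± 0.19 in MAGI2-CKO (adjusted p = 0.0182) and was 0.54 ± 0.19 higher in RHBDD2-CKO (adjusted p = 0.0426). It was at 0.24 ± 0.19 in MLPH-CKO (adjusted p = 0.391) and at -0.51 ± 0.19 in C9orf89-CKO (adjusted p = 0.0682), where it passed without C9orf89-CKO replicate 3 (adjusted p = 0.0061) and by voom on the recovered fragments (adjusted p = 0.0487). With the replicate number as a block MYO5B passed there as well (adjusted p = 0.0457). From MAGI2-CKO to RHBDD2-CKO the difference was 1.18 ± 0.19 (adjusted p = 0.000271). The MAGI2-CKO call was lost without the libraries numbered 1 (adjusted p = 0.074), Non-target replicate 2 (adjusted p = 0.075) or MAGI2-CKO replicate 1 (adjusted p = 0.0693). The RHBDD2-CKO call was lost in 13 of its 24 alternatives (adjusted p up to 0.13), among them those without the libraries numbered 1 (adjusted p = 0.126) or without any 1 of the RHBDD2-CKO or MLPH-CKO libraries, Non-target replicate 1 or 3, or MAGI2-CKO replicate 2.

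Per length, MYO5A and MYO5C made up most of the class V myosin RNA in every group. The summed level of the 3 motors was 6.01 ± 0.341 FPKM in Non-target, 6.78 ± 0.185 in C9orf89-CKO, 9.92 ± 0.598 in RHBDD2-CKO, 9.63 ± 0.374 in MAGI2-CKO and 12.1 ± 0.449 in MLPH-CKO (SD, n = 3). The sum was thus highest in MLPH-CKO, with no library of another group above 10.4 FPKM and none of MLPH-CKO under 11.7. MYO5A took 49.2% of the sum in Non-target and 47.4% in MLPH-CKO, and MYO5C 35.2% and 43.4%. MYO5B took 15.6% in Non-target, 9.49% in C9orf89-CKO, 14.1% in RHBDD2-CKO, 5.85% in MAGI2-CKO and 9.21% in MLPH-CKO.

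SYTL1 (ENSG00000142765, chr1:27342020-27353937, plus strand), a tether of RAB27 vesicles at the plasma membrane, was raised in 3 clones at a low level. It stood at 0.424, 0.544 and 0.357 FPKM in Non-target, 0.933, 0.766 and 0.677 in C9orf89-CKO, 0.562, 0.539 and 0.594 in RHBDD2-CKO, 0.618, 0.905 and 1.05 in MAGI2-CKO, and 0.579, 1.04 and 0.869 in MLPH-CKO. The lowest libraries of MAGI2-CKO and MLPH-CKO, both replicate 1, were close to the highest Non-target library. Among the Non-target libraries only that at 0.544 FPKM reached the 0.5 FPKM of the filter, which SYTL1 thus passed only through the clones. Its calls against Non-target rest in part on this choice of genes, and no support is drawn from them. SYTL1 was higher in MAGI2-CKO by 0.81 (limma, adjusted p = 0.0147), in MLPH-CKO by 0.76 (adjusted p = 0.0241) and in C9orf89-CKO by 0.72 (adjusted p = 0.0339), and stood at 0.31 in RHBDD2-CKO (adjusted p = 0.327), each ± 0.23. Leaving out 1 library ended each call, with adjusted p up to 0.119 in C9orf89-CKO (Non-target replicate 1 or 3, C9orf89-CKO replicate 1 or 2), 0.0661 in MAGI2-CKO (Non-target replicate 3, MAGI2-CKO replicate 2 or 3) and 0.105 in MLPH-CKO (Non-target replicate 1 or 3, MLPH-CKO replicate 2 or 3). Quantile normalization and a fit of 6 libraries alone also ended the C9orf89-CKO and MLPH-CKO calls, and the C9orf89-CKO call was lost without the libraries numbered 1 (adjusted p = 0.077). With no filter on low values the calls in C9orf89-CKO (adjusted p = 0.0685) and MLPH-CKO (adjusted p = 0.0503) were lost as well, and that in MAGI2-CKO was kept. No pair of clones passed the test in SYTL1, but without the libraries numbered 1 RHBDD2-CKO was lower than MAGI2-CKO (-0.69, adjusted p = 0.037) and MLPH-CKO (-0.66, adjusted p = 0.0498). Leaving out MAGI2-CKO replicate 1 (adjusted p = 0.0354) or MLPH-CKO replicate 1 (adjusted p = 0.0443) alone had the same effect on the respective pair.

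SYTL2 (chr11:85694224-85811159, minus strand), the effector that docks melanosomes and secretory granules, was raised in RHBDD2-CKO. It had 19, 17 and 18 fragments in Non-target, 31, 19 and 21 in C9orf89-CKO, 63, 46 and 47 in RHBDD2-CKO, 26, 16 and 20 in MAGI2-CKO and 28, 18 and 28 in MLPH-CKO. All RHBDD2-CKO libraries lay above all others. SYTL2 was 0.89 ± 0.20 higher in RHBDD2-CKO than in Non-target in the fit without a filter (adjusted p = 0.00899, where 8.3% of all genes were higher), a ratio of 2.76 in fragments scaled for depth. RHBDD2-CKO also exceeded MAGI2-CKO by 0.93 (adjusted p = 0.00539, 10.7% of genes higher). Its gaps to C9orf89-CKO (0.73, adjusted p = 0.0315, 6.82%) and MLPH-CKO (0.76, adjusted p = 0.0206, 9.12%) did not hold with a pseudocount of 0.01 (adjusted p = 0.124 and 0.0911) or in a fit of the 6 libraries alone (adjusted p = 0.096 and 0.0561). The gap to C9orf89-CKO was also lost without C9orf89-CKO replicate 2 (adjusted p = 0.074) or 3 (adjusted p = 0.0654) or RHBDD2-CKO replicate 1 (adjusted p = 0.0539), and that to MLPH-CKO without MLPH-CKO replicate 2 (adjusted p = 0.0505). SYTL4 (ENSG00000102362, chrX:100674491-100732123, minus strand), known for granule secretion, lay between 0.89 and 1.34 FPKM in all libraries and passed no test. MAGI2-CKO against C9orf89-CKO (-0.33, adjusted p = 0.0888) passed without MAGI2-CKO replicate 1 (adjusted p = 0.0423), with quantile normalization (adjusted p = 0.0433) and by voom (adjusted p = 0.0493). That pair also passed with the replicate number as a block (adjusted p = 0.0377). The log2 differences of SYTL4 from Non-target ran from -0.17 to 0.17, each ± 0.13.

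Counted over the 6 genes past the filter, 2 were higher and 0 lower in C9orf89-CKO, where 26.0% of all tested genes were called (12.9% higher and 13.1% lower). In RHBDD2-CKO 3 were higher and 0 lower (34.1% of all, 17.4% higher and 16.7% lower). MAGI2-CKO had 4 higher and 1 lower (36.1%, 17.0% and 19.1%), and MLPH-CKO 4 higher and 0 lower (30.1%, 14.5% and 15.5%). The genes called in C9orf89-CKO were MYO5C and SYTL1, and neither was called without the libraries numbered 1. The median log2 fold change of the 6 was 0.22 in C9orf89-CKO, 0.43 in RHBDD2-CKO, 0.67 in MAGI2-CKO and 0.72 in MLPH-CKO, and that of all tested genes was between -0.01 and 0.00.

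Comparisons between clones do not use the level in the Non-target wells, which enter only the estimate of the spread. The percentages in brackets are the shares of all tested genes called in either direction. MLPH-CKO exceeded C9orf89-CKO in 4 of the 6 genes (background 14.2%), by 0.66 for RAB27A, 0.67 for MYO5A, 0.74 for MYO5B and 1.00 for MYO5C. MAGI2-CKO exceeded C9orf89-CKO in 3 (22.5%), RAB27A, MYO5A and MYO5C, by 0.52, 0.53 and 0.58. RHBDD2-CKO exceeded C9orf89-CKO in the 3 myosin genes (29.3%), by 0.38, 1.05 and 0.57 for MYO5A, MYO5B and MYO5C. That of MYO5A (adjusted p = 0.0301) was lost without C9orf89-CKO replicate 2 (adjusted p = 0.0911) or 3 (adjusted p = 0.108), without RHBDD2-CKO replicate 1 (adjusted p = 0.0854) or 3 (adjusted p = 0.0995), with the 6 libraries alone (adjusted p = 0.0582) and with no filter (adjusted p = 0.0532). The other 3 pairs had 2 calls each, MYO5B and MYO5C for MLPH-CKO against MAGI2-CKO (21.2%), RAB27A and MYO5B for RHBDD2-CKO against MAGI2-CKO (41.6%) and RAB27A and MYO5C for RHBDD2-CKO against MLPH-CKO (37.0%). Between MAGI2-CKO and MLPH-CKO the called differences were thus in the motors MYO5B (0.88, adjusted p = 0.00513) and MYO5C. Without the libraries numbered 1, RAB27A in MAGI2-CKO (adjusted p = 0.0539) and MYO5B in MLPH-CKO (adjusted p = 0.121) were no longer called against C9orf89-CKO. That of MYO5B was also lost without any 1 of the MLPH-CKO libraries or C9orf89-CKO replicate 1 or 2 (adjusted p up to 0.0805) and with the 6 libraries alone (adjusted p = 0.109). RHBDD2-CKO then had 3 calls against MAGI2-CKO, with SYTL1, and 4 against MLPH-CKO, with MYO5A and SYTL1.

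**Figure D2:**
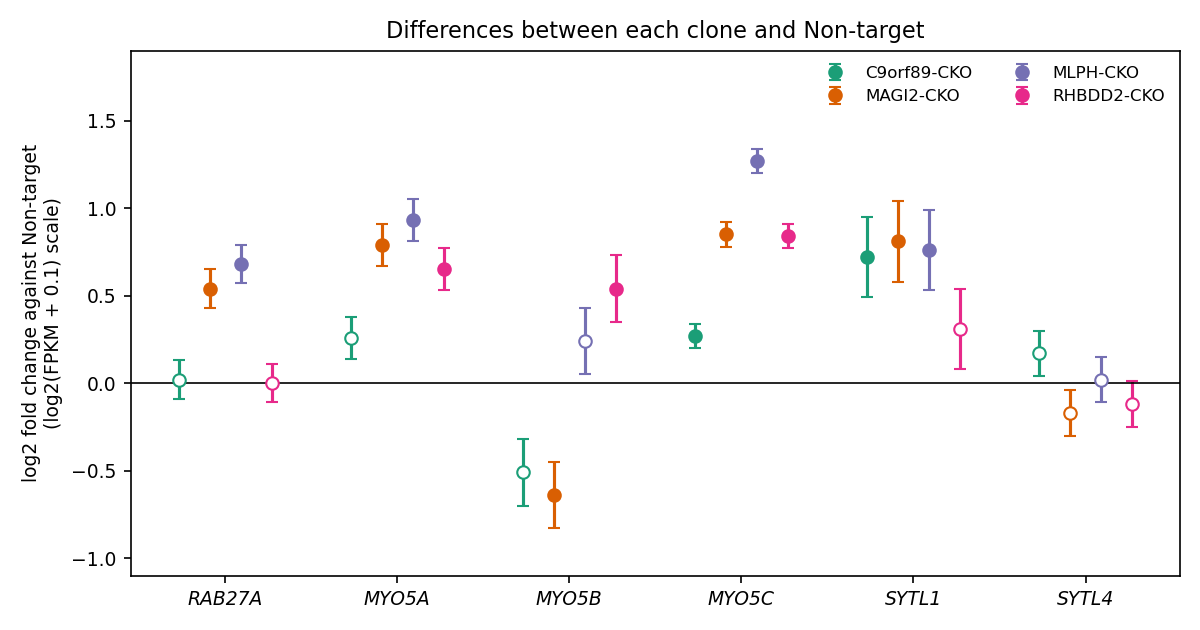
Log2 fold change against Non-target (vertical axis, log2(FPKM + 0.1) scale) of the 6 tested genes in the 4 clones; bars are the standard error and filled symbols passed the adjusted threshold of 0.05. MYO5C is raised in all 4 clones, from 0.27 to 1.27, and MYO5B lies on either side of 0. SYTL1 passed the filter on low values only through the clones.

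RAB27A, MYO5A and MYO5C lie close to each other on chromosome 15, and in MAGI2-CKO and MLPH-CKO they were higher along with much of that chromosome. Of 536 tested genes on chromosome 15, 252 were higher in MAGI2-CKO (47.0%) and 274 in MLPH-CKO (51.1%), against 17.0% and 14.5% of all tested genes. The chromosome's median log2 fold change was 0.40 and 0.43 in these clones, but 0.03 in C9orf89-CKO and 0.06 in RHBDD2-CKO. RAB27A stood close to its surroundings. The 50 tested genes nearest to it had medians of 0.46 in MAGI2-CKO and 0.57 in MLPH-CKO, beside 0.54 and 0.68 for RAB27A itself, and 32 and 34 of them had smaller changes than RAB27A. RSL24D1, a ribosome biogenesis gene and the nearest tested gene before RAB27A, was at 0.34 in MAGI2-CKO (adjusted p = 0.0583) and 0.44 higher in MLPH-CKO (adjusted p = 0.0218).

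MYO5C and MYO5A lay further than RAB27A from the median of the genes around them. The 50 tested genes nearest to MYO5C had a median of 0.55 in MLPH-CKO, and 49 of them changed less than MYO5C (1.27). In RHBDD2-CKO the chromosome's median was near 0, and the genes around MYO5A and MYO5C had a median of 0.08. There, 48 of the 50 neighbours were below MYO5C (0.84) and 45 below MYO5A (0.65). The neighbours include the other member genes. ARPP19, the nearest tested gene beyond MYO5A and a regulator of mitosis, was higher in RHBDD2-CKO by 0.37, in MAGI2-CKO by 0.41 and in MLPH-CKO by 0.50. GNB5, a G protein subunit beyond MYO5C, was higher in MAGI2-CKO (0.47) and MLPH-CKO (0.60) and stood at -0.11 in RHBDD2-CKO (adjusted p = 0.463). Whether the number of chromosome copies differs between the clones was not tested.

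**Figure D3:**
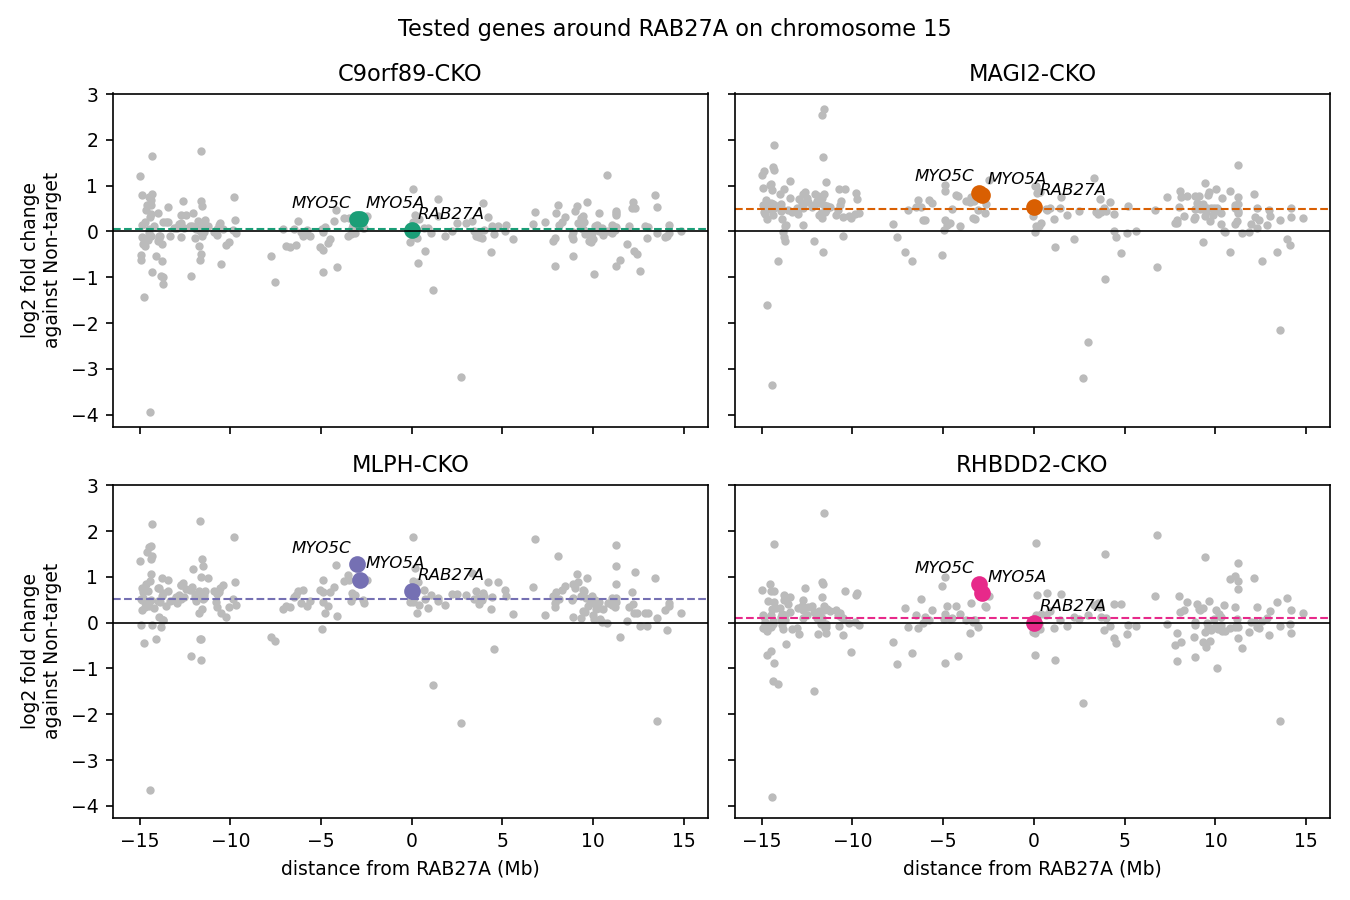
Log2 fold change against Non-target (vertical axes) of the 235 tested genes within 15 Mb of RAB27A on chromosome 15, against distance from RAB27A in Mb (horizontal axes), 1 panel per clone; coloured points are RAB27A, MYO5A and MYO5C and dashed lines the median of all points. The median is 0.48 in MAGI2-CKO and 0.52 in MLPH-CKO, 0.05 in C9orf89-CKO and 0.10 in RHBDD2-CKO, where MYO5A and MYO5C still lie above it.

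The genes around SYTL1 were also raised, in all 4 clones. Of the 50 tested genes nearest to SYTL1, all within 1.16 Mb, 30 were higher in C9orf89-CKO, 29 in RHBDD2-CKO, 32 in MAGI2-CKO and 29 in MLPH-CKO. Their median log2 fold changes were 0.57, 0.47, 0.58 and 0.46 in that order, beside 0.72, 0.31, 0.81 and 0.76 for SYTL1. Of the 50, 34 lay below SYTL1 in C9orf89-CKO, 15 in RHBDD2-CKO, 36 in MAGI2-CKO and 39 in MLPH-CKO, where the gap was widest. Over the whole of chromosome 1 the medians were only 0.08, 0.08, 0.07 and 0.03, and 20.0%, 24.8%, 24.0% and 19.8% of its tested genes were higher. Of all tested genes, 12.9%, 17.4%, 17.0% and 14.5% were higher in the same order of clones. As all 4 comparisons share the Non-target wells, a low value of the stretch around SYTL1 in Non-target and a high value in every clone cannot be told apart.

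On chromosome 18, MYO5B in RHBDD2-CKO and RAB27B in 3 clones lay far from the median of the genes around them. Over the whole chromosome, 64 of 233 tested genes were lower in RHBDD2-CKO and 53 in MAGI2-CKO, with medians of -0.13 and -0.12. Of all tested genes, 16.7% and 19.1% were lower in these clones. The chromosome's median was 0.01 in C9orf89-CKO and -0.02 in MLPH-CKO. The 50 tested genes nearest to MYO5B had a median of -0.05 in RHBDD2-CKO and -0.19 in MAGI2-CKO, beside 0.54 and -0.64 for MYO5B, and 49 of the 50 lay below MYO5B in RHBDD2-CKO and 8 in MAGI2-CKO. Those nearest to RAB27B had medians of -0.01, -0.19 and -0.07 in RHBDD2-CKO, MAGI2-CKO and MLPH-CKO, beside -1.27, -1.15 and -1.18. TCF4, a transcription factor gene and the nearest tested gene after RAB27B, was lower in all 4 clones, between -0.44 and -0.40. SNRPGP2, a pseudogene before it, passed no test. MBD1 on one side of MYO5B passed no test either, and ACAA2 on the other fell by 0.40 in MAGI2-CKO and fell by 0.42 in RHBDD2-CKO, so that it went against MYO5B in the latter.

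**Figure D4:**
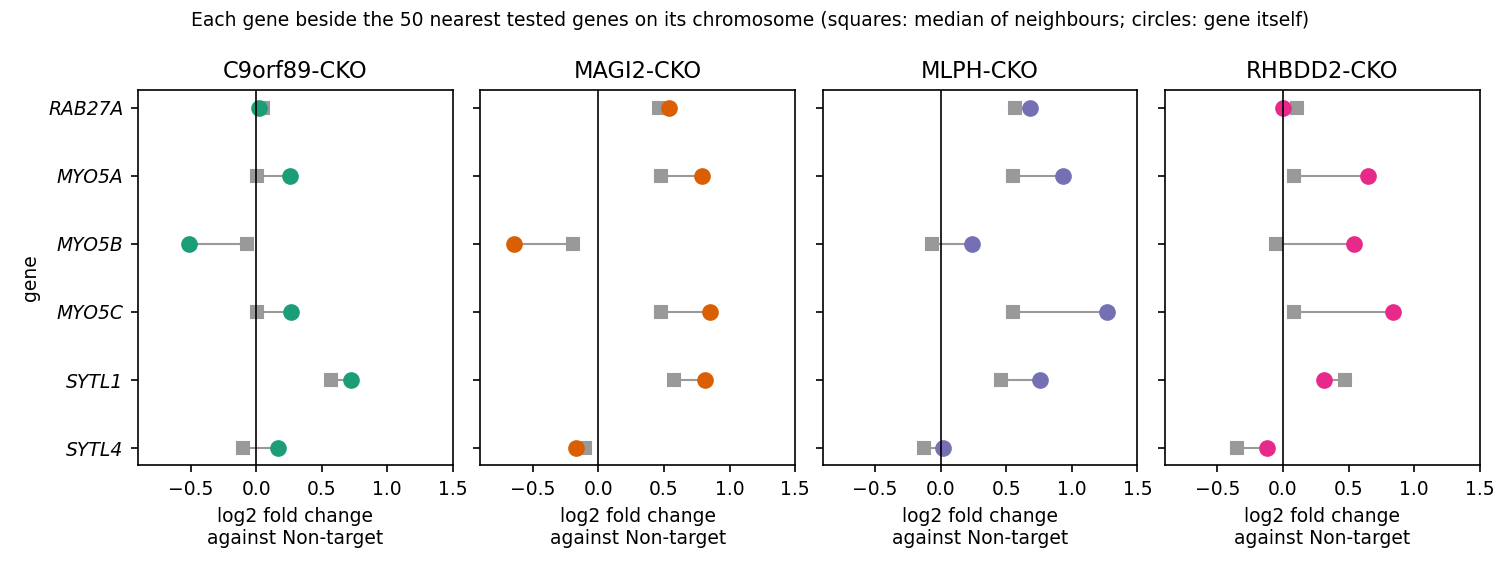
Log2 fold change against Non-target (horizontal axes) of each of the 6 tested genes (circles) beside the median of the 50 tested genes nearest to it on its chromosome (squares), 1 panel per clone. RAB27A lies near its square in MAGI2-CKO and MLPH-CKO, while MYO5C in MLPH-CKO and MYO5B in RHBDD2-CKO lie far from theirs.

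The 3 tested genes whose values over the 15 libraries were most like those of RAB27A were PDIA3 (Pearson r = 0.965), BX284668.2 (0.952) and MYO1E (0.949), of which PDIA3 and MYO1E lie on chromosome 15. All 3 genes most like MYO5A, namely TJP1 (0.960), UBR1 (0.952) and SECISBP2L (0.950), lie on that chromosome as well, as do TJP1 (0.952) and BNIP2 (0.951), which were most like MYO5C. For MYO5B they were FOXA1 (0.941), ATP6V0B (0.927) and PLXNA2 (0.912), and for SYTL1 they were TNFRSF25 (0.928), ARHGEF19 (0.913) and DNM1 (0.894), of which TNFRSF25 and ARHGEF19 share chromosome 1 with it. SYTL4 was most like ARMCX3 (0.878), SMC4 (0.873) and CMBL (0.864). These values describe 15 libraries that fall into 5 clones and share their library depth and base composition with the genes compared.

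The wider pathway was described over 6 lists of 74 genes, of which 70 were tested. In C9orf89-CKO 10 were higher and 9 lower, 27.1% of those tested beside 26.0% of all genes. The counts were 12 and 19 in RHBDD2-CKO (44.3% beside 34.1%), 8 and 19 in MAGI2-CKO (38.6% beside 36.1%) and 18 and 11 in MLPH-CKO (41.4% beside 30.1%). The median log2 fold change was 0.00 in C9orf89-CKO, -0.05 in RHBDD2-CKO, -0.01 in MAGI2-CKO and 0.05 in MLPH-CKO. The shares were near those of all genes in C9orf89-CKO and MAGI2-CKO and above them in RHBDD2-CKO and MLPH-CKO. RAB38, which passed the filter only through its high Non-target libraries, is among the lower in 3 clones. Without it, 69 were tested, with 10 higher and 8 lower in C9orf89-CKO (26.1%), 12 and 18 in RHBDD2-CKO (43.5%) and 8 and 18 in MAGI2-CKO (37.7%).

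Among the other RAB27 effectors, 4 of 6 were tested, and UNC13D and RPH3A were too low. None of the 4 was called in C9orf89-CKO or MLPH-CKO, 2 fell in MAGI2-CKO, and in RHBDD2-CKO 1 rose and 1 fell. The share called was 0% in C9orf89-CKO beside 26.0% of all tested genes, 50% in RHBDD2-CKO beside 34.1%, 50% in MAGI2-CKO beside 36.1% and 0% in MLPH-CKO beside 30.1%. EXPH5, also known as Slac2-b, stood at 0.674 ± 0.0551 FPKM in Non-target and at 0.362 ± 0.0115 in MAGI2-CKO, where it fell by 0.74 (adjusted p = 0.0033). It stood at 1.08 ± 0.179 FPKM in RHBDD2-CKO (0.60 higher, adjusted p = 0.0134), a call that was lost without RHBDD2-CKO replicate 2 (adjusted p = 0.0576) or 3 (adjusted p = 0.054). SYTL5 fell by 0.64 in MAGI2-CKO (adjusted p = 0.0489), and RPH3AL, known as Noc2, fell by 0.67 in RHBDD2-CKO (adjusted p = 0.0323). Neither call was kept when Non-target replicate 2 was left out (adjusted p = 0.136 and 0.117), and that of SYTL5 was also lost without any 1 of the MAGI2-CKO or Non-target libraries or without the libraries numbered 1 (adjusted p = 0.0559). The value of RPH3AL was -0.40 without RHBDD2-CKO replicate 3 (adjusted p = 0.131), and its call was also lost without RHBDD2-CKO replicate 2 (adjusted p = 0.0562) or Non-target replicate 3 (adjusted p = 0.0639).

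Of the RAB27 regulators, 10 of 11 were tested, which activate RAB27 (MADD), return it to the inactive form (the TBC1D10 genes) or attach and extract its lipid anchor. There were 2 higher and 1 lower in C9orf89-CKO, 3 and 1 in RHBDD2-CKO, 2 and 0 in MAGI2-CKO, and 4 and 2 in MLPH-CKO. Called genes made up 30%, 40%, 20% and 60% of the list in that order, beside 26.0%, 34.1%, 36.1% and 30.1% of all tested genes. CHM, the escort protein that presents RAB27A for prenylation, was higher in MLPH-CKO by 0.40 (adjusted p = 0.00322). Its calls in MAGI2-CKO (0.30, adjusted p = 0.0143) and RHBDD2-CKO (0.23, adjusted p = 0.0477) were lost without Non-target replicate 2 (adjusted p = 0.0511 and 0.14) or 3 (adjusted p = 0.0507 and 0.129). TBC1D10A and TBC1D10B, the tested GTPase-activating proteins of the list, passed no test in any clone.

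The light chains of myosin V, the actin nucleators that lay its tracks and MAPRE1, a protein of growing microtubule ends, formed 1 list, whose genes were lower where they were called, with 1 of 9 tested in C9orf89-CKO (11.1%, beside 26.0% of all genes called), 4 in RHBDD2-CKO (44.4% beside 34.1%), 5 in MAGI2-CKO (55.6% beside 36.1%) and 3 in MLPH-CKO (33.3% beside 30.1%). DYNLL1, a dynein light chain gene of this list, fell in all 4 clones, from 80.6 ± 1.77 FPKM in Non-target to between 56.3 and 62.4 on average. DYNLL2, the other dynein light chain gene of the list, passed no test in any clone, so that the fall was not shared by both genes. CALM3, a calmodulin gene, fell by 0.44 in RHBDD2-CKO (adjusted p = 0.000593). Its lower values in MAGI2-CKO (-0.24, adjusted p = 0.0201) and MLPH-CKO (-0.26, adjusted p = 0.0159) did not pass without Non-target replicate 2 (adjusted p = 0.0611 and 0.0504). FMN2, an actin nucleator that works with SPIRE proteins, stood at 3.84 ± 0.21 FPKM in Non-target and at 1.75 ± 0.124 in RHBDD2-CKO (fell by 1.09, adjusted p = 1.85e-06). MAPRE1 was lower by the test in RHBDD2-CKO (-0.16, adjusted p = 0.0438), MAGI2-CKO (-0.21, adjusted p = 0.00944) and MLPH-CKO (-0.21, adjusted p = 0.0123). Its call in RHBDD2-CKO was lost without any 1 of the Non-target libraries (adjusted p up to 0.102) or RHBDD2-CKO replicate 2 or 3 (adjusted p = 0.152 and 0.134). With quantile normalization MAPRE1 stood at 0.03 in RHBDD2-CKO, and its value in MLPH-CKO did not pass (-0.15, adjusted p = 0.052). SPIRE1 and SPIRE2 passed no test in any clone.

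The RAB GTPases and adaptors that load other cargo on myosin V were all tested, 9 in number. In C9orf89-CKO 3 were higher and 0 lower, and the counts were 1 and 3 in RHBDD2-CKO, 2 and 1 in MAGI2-CKO, and 5 and 1 in MLPH-CKO. These are 33.3%, 44.4%, 33.3% and 66.7% of the list, beside the same shares of all genes as above (26.0%, 34.1%, 36.1% and 30.1%). RAB39B, a neuronal RAB, had 4.0 ± 0.315 FPKM in Non-target, 6.71 ± 0.664 in MAGI2-CKO, 5.44 ± 0.124 in C9orf89-CKO and 5.37 ± 0.543 in MLPH-CKO, but 2.15 ± 0.0935 in RHBDD2-CKO. It rose in the first 3 of these clones, in MLPH-CKO not without the libraries numbered 1 (adjusted p = 0.0604), and fell by 0.86 in RHBDD2-CKO (adjusted p = 1.71e-05). RAB11FIP1 and RAB11FIP2, which bind RAB11 on recycling endosomes, were higher by 0.41 (adjusted p = 0.000544) and 0.39 (adjusted p = 0.00154) in MLPH-CKO. RAB3D, a secretory granule RAB, fell by 0.53 in MLPH-CKO (adjusted p = 0.00852), and its calls in RHBDD2-CKO (-0.41) and MAGI2-CKO (-0.39) were lost without Non-target replicate 3 (adjusted p = 0.125 and 0.145).

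RAB32 and RAB38, of the list of lysosome-related organelle biogenesis, direct melanosomal enzymes to the melanosome. Leaving aside RAB38, RAB32 had the widest changes of this list. RAB32 stood at 20.2, 25.3 and 23.2 FPKM in Non-target, 9.36, 10.9 and 14.8 in C9orf89-CKO, 4.07, 4.56 and 4.44 in RHBDD2-CKO, 10.9, 9.41 and 9.98 in MAGI2-CKO and 12.6, 10.3 and 10.7 in MLPH-CKO. No clone library reached the lowest Non-target library. RAB32 was lower in all 4 clones, at -0.98 in C9orf89-CKO, -2.36 in RHBDD2-CKO, -1.17 in MAGI2-CKO and -1.02 in MLPH-CKO, each ± 0.14, with adjusted p between 1.33e-07 and 0.00028. RAB38 stood at 1.16 ± 0.178 FPKM in Non-target and at 0.239 in C9orf89-CKO, 0.0385 in RHBDD2-CKO and 0.117 in MAGI2-CKO on average, with no library of these clones above 0.287. In MLPH-CKO (0.767 ± 0.324 FPKM) it overlapped Non-target. RAB38 passed the filter only through its high Non-target libraries, so that its values are given without a test.

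The list as a whole, 20 of 20 tested, had 3 higher and 6 lower in C9orf89-CKO, 5 and 5 in RHBDD2-CKO, 3 and 6 in MAGI2-CKO and 3 and 3 in MLPH-CKO, with medians from -0.05 to 0.00. The shares called were 45% beside 26.0% of all genes in C9orf89-CKO, 50% beside 34.1% in RHBDD2-CKO, 45% beside 36.1% in MAGI2-CKO and 30% beside 30.1% in MLPH-CKO. These counts hold RAB38 among the lower in the first 3 clones named, and without it 42.1% of the list was called in C9orf89-CKO, 47.4% in RHBDD2-CKO and 42.1% in MAGI2-CKO. DTNBP1, the dysbindin subunit of BLOC-1, was lower in MLPH-CKO (-0.50), MAGI2-CKO (-0.54) and C9orf89-CKO (-0.37), and was 0.51 higher in RHBDD2-CKO (adjusted p = 4.43e-05). HPS3, a subunit of BLOC-2, fell by 0.87 in RHBDD2-CKO (adjusted p = 1.09e-06) and fell by 0.51 in MAGI2-CKO. Its call in C9orf89-CKO (-0.25) was lost without the libraries numbered 1 (adjusted p = 0.0514). AP3M1, a subunit of the AP-3 coat, was higher in C9orf89-CKO by 0.46 and in MLPH-CKO by 0.36. Its calls in RHBDD2-CKO and MAGI2-CKO, both at 0.25, were lost without those libraries (adjusted p = 0.0588 and 0.0514).

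Of the genes for exosome and secretory lysosome release, 18 of 18 were tested, with 2 higher and 1 lower in C9orf89-CKO, 2 and 5 in RHBDD2-CKO, 1 and 5 in MAGI2-CKO, and 6 and 2 in MLPH-CKO. This is 16.7% of the list beside 26.0% of all genes in C9orf89-CKO, 38.9% beside 34.1% in RHBDD2-CKO, 33.3% beside 36.1% in MAGI2-CKO and 44.4% beside 30.1% in MLPH-CKO. RAB35, a RAB of exosome release, fell in all 4 clones, from 29.5 ± 0.442 FPKM in Non-target to 21.7 in C9orf89-CKO, 20.4 in RHBDD2-CKO, 18.9 in MAGI2-CKO and 19.5 in MLPH-CKO. STAM, an ESCRT-0 subunit, stood at 9.74 ± 0.43 FPKM in Non-target and was higher in MLPH-CKO (12.5), MAGI2-CKO (13.2) and C9orf89-CKO (14.2). Its call in RHBDD2-CKO (11.5 FPKM, adjusted p = 0.0337) was lost without any 1 of the RHBDD2-CKO libraries or Non-target replicate 2 or 3 (adjusted p up to 0.113), and without the libraries numbered 1 (adjusted p = 0.0722). LAMP1, a lysosomal membrane protein, fell by 0.60 in RHBDD2-CKO (adjusted p = 0.000178) and passed no test in the other clones, where its differences were 0.20 to 0.22. CD63, the tetraspanin that marks exosomes, passed no test in any clone.

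**Figure D5:**
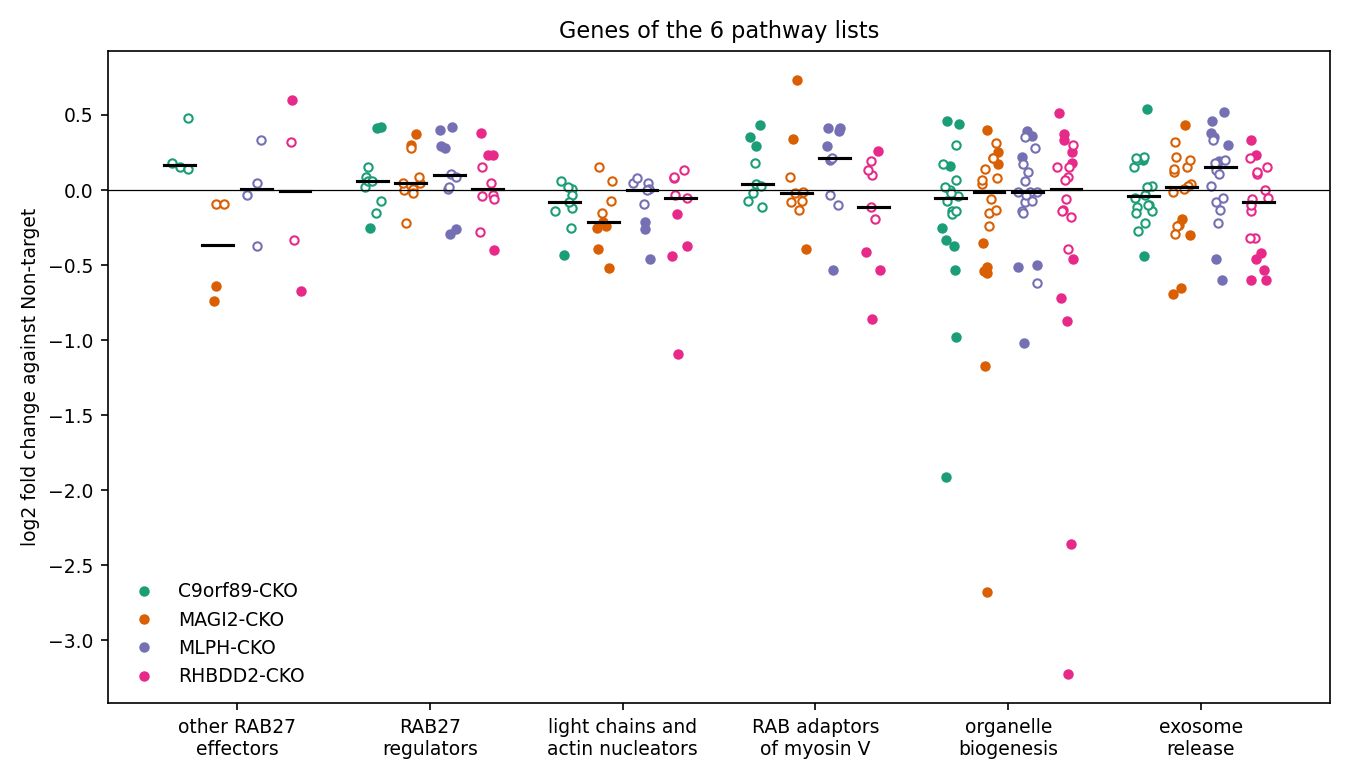
Log2 fold change against Non-target (vertical axis) of the 70 tested genes of the 6 pathway lists (horizontal axis), by clone; filled points passed the adjusted threshold of 0.05, open points did not, and black bars are medians. Leaving aside RAB38, which passed the filter only through its high Non-target libraries, the lowest point is RAB32 at -2.36 in RHBDD2-CKO.

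The cargo of this machinery in pigment cells was not present as a set. Of 6 melanocyte markers, TYR, the tyrosinase gene, was at 0 in all 15 libraries, DCT and MLANA were under the filter, and the sum of the 6 was between 2.09 and 2.63 FPKM on average in 4 groups, with MITF the most abundant. RHBDD2-CKO reached 4.73 FPKM through TYRP1, a melanosomal enzyme, which stood at 2.33, 2.18 and 2.45 FPKM there and at most 0.133 in any other library. TYRP1 passed the filter only through these 3 libraries, so that no test is given for it. PMEL, the melanosome fibril protein, stood at 0.261 ± 0.0631 FPKM in Non-target and on average at 0.64 in C9orf89-CKO, 0.639 in RHBDD2-CKO, 0.892 in MAGI2-CKO and 0.962 in MLPH-CKO. It passed the filter only through the clones, so that its values are given without a test as well. MITF, the transcription factor of melanocytes, fell by 0.48 in C9orf89-CKO (adjusted p = 0.000743) and fell by 0.45 in MLPH-CKO (adjusted p = 0.000942). The part of these genes in the levels of RAB27A and MYO5A was not tested.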

How the data were processed

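RNA of 15 HEK293T libraries was measured in 5 groups of 3 wells, with groups and replicate numbers from the labels. The submitters' processing notes name HISAT2 2.0.5, featureCounts 1.5.0-p3 and DESeq2. The genome build, annotation, strand setting and unit are not given in the sources used here. The authors deposited 1 value per gene and library, read here as FPKM because the product of each value with a gene's merged exon length (GENCODE v29) and the library's depth gave whole fragments within 0.01. All 58735 identifiers matched that annotation, and 0 columns were left unused.

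A gene was tested if 3 or more libraries held 0.5 FPKM or more. The test was limma 3.58.1 in R 4.3.3 on log2(FPKM + 0.1), with all 15 libraries in 1 model of 5 groups, a mean-variance trend in eBayes (2.62 prior degrees of freedom) and 10 contrasts. Benjamini-Hochberg adjustment ran over all 16175 genes of a contrast, and the threshold was 0.05. Fold changes on this scale understate the change of low genes. RAB27B, SYTL2 and MYRIP were read from the fit without a filter, a choice made after seeing the data. The labels do not say that wells were separate cultures over time, so p-values measure the spread between wells of 1 clone. Fragment ratios have exact binomial intervals of 95%, which like the floor of 3 fragments cover counting error only.

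The genes and lists were chosen with earlier results of these data known. The genes named are all 10 members, at least the 2 genes of each list with the lowest adjusted p against Non-target, the 3 tested genes most like each tested member, and the nearest tested gene on either side of RAB27A, MYO5A, MYO5C, RAB27B and MYO5B. Any other list gene could be named and was picked after its values were seen. A few genes that this rule names are not reported here. Melanocyte, HEK293T, blood and mesenchymal markers were lists of 6. RefSeq windows were found for 9 of the 10 genes. The fit was tested on simulated data, and no outcome of that is reported here. As alternatives the model was run with pseudocounts of 1 and 0.01, with quantile-normalized values, on genes that averaged 1 FPKM or more (12533 genes) or without a filter, without the trend, on the 6 libraries of a contrast, with the replicate number as a block, with voom on the recovered fragments, and with each library left out. The fit without the 5 libraries numbered 1 was added after seeing the data. Tables and figures were made in Python 3.11.15 (pandas 2.3.3, numpy 2.4.6, matplotlib 3.10.9, scipy 1.17.1).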

Additional observations from a re-analysis of the deposited data

How the results depend on the processing

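The number of transport genes that passed against Non-target was 2 in C9orf89-CKO. It was 1 with a pseudocount of 1, with a mean of at least 1 FPKM, with quantile normalization and with no filter, and 0 with the 6 libraries alone or without the 5 libraries numbered 1, an alternative added after the data were seen. The mean of at least 1 FPKM also gave 3 in MAGI2-CKO and 1 each in MLPH-CKO and RHBDD2-CKO against MAGI2-CKO, as MYO5B and SYTL1 are then not tested. Without the libraries numbered 1, RHBDD2-CKO against MLPH-CKO had 4. With 1 library left out, the counts against Non-target ran from 0 to 2 in C9orf89-CKO, 2 to 3 in RHBDD2-CKO, 4 to 5 in MAGI2-CKO and 3 to 4 in MLPH-CKO. C9orf89-CKO had 0 without its replicate 2, and 1 without its replicate 1 or Non-target replicate 3.

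The replicate numbers were not taken to pair the libraries, since the labels give no shared source. Deviations from the group means correlated with a median of 0.0856 over the 30 pairs with the same number (12 above 0.1), against -0.0887 for different numbers. Of the 15 libraries, 12 correlated best with their own number. This is a hint from the data of a component shared by number, which the main model leaves in the spread between wells. With the replicate number as a block, 3 transport genes passed in C9orf89-CKO, 3 in RHBDD2-CKO, 5 in MAGI2-CKO and 4 in MLPH-CKO, and 24, 37, 38 and 33 pathway genes. The block added MYO5B in C9orf89-CKO (adjusted p = 0.0457) and, between clones, MYO5A in RHBDD2-CKO against MLPH-CKO (adjusted p = 0.0316) and SYTL4 in MAGI2-CKO against C9orf89-CKO (adjusted p = 0.0377).

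Of 1310 alternative values of single transport genes, 8 changed sign, all of genes not called. RAB27A in C9orf89-CKO was -0.01 with quantile normalization and ran from -0.05 to 0.08 with 1 library left out. SYTL4 in MLPH-CKO was -0.05 with quantile normalization and -0.02 without the libraries numbered 1, and ran from -0.06 to 0.07 with 1 library left out. SYTL2 in MAGI2-CKO ran from -0.12 to 0.05. Of 67 called values of the other genes named, 49 kept their call in every alternative run, and 1 changed sign, that of MAPRE1 in RHBDD2-CKO, which was 0.03 with quantile normalization (adjusted p = 0.718). The cause of these changes was not tested. Depth limits MYRIP, RAB27B and SYTL2, with 70, 108 and 417 fragments over all libraries.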

Other observations

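COL3A1 and COL1A1, the 2 mesenchymal markers past the filter of 6 read, differed in their pattern. COL3A1, a fibrillar collagen gene, stood at 1.29 ± 0.248 FPKM (SD, n = 3) in Non-target and at 0.129, 0.204, 0.352 and 0.16 in C9orf89-CKO, RHBDD2-CKO, MAGI2-CKO and MLPH-CKO, with all clone libraries at or under 0.369. It passed the filter only through its Non-target libraries, so that no test is given for it. COL1A1 stood at 2.43 ± 0.212 FPKM in Non-target and was higher in MLPH-CKO (4.48), MAGI2-CKO (4.75) and C9orf89-CKO (4.12), with adjusted p = 0.00311, 0.0011 and 0.00739. In RHBDD2-CKO it stood at 3.28 FPKM (adjusted p = 0.0939).

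NEFL, the light neurofilament gene, was at 0.984 ± 0.131 FPKM in RHBDD2-CKO and at 34.8 ± 0.813 in MLPH-CKO, against 18.8 ± 1.91 in Non-target. NEFM stood at 1.34 ± 0.482 FPKM in RHBDD2-CKO and at 22.4 ± 8.06 in MLPH-CKO, and replicate 1 was its highest library in each of the 5 groups.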
